A study of Rattus norvegicus and Ovis aries with 113 samples.

Results

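RNA from the rat sperm samples was set against RNA from the brains of the male rats that carry the same numbers. The members were every sperm library and every male brain library numbered 3 to 17, which made 15 sperm and 15 brain libraries, 30 of the 113 libraries of the series. The animals were post-pubertal male Sprague Dawley rats, an outbred laboratory strain, and the labels state no treatment, genotype or exact age. Whole brains and seminal fluid were taken right after death, so each brain library mixes all regions and each library labelled sperm comes from a fluid rather than from sorted cells. The study's title asks which genes link the nervous and the reproductive system, and this pair of samples is its male rat arm. A shared number was read as a shared animal, which the labels imply but do not state.

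As background, a sperm is the end point of spermatogenesis. Its nucleus is packed first with transition proteins and then with protamines in place of histones, its tail is built from dense fibres and a fibrous sheath, and its head carries the acrosome, a vesicle of enzymes used at the egg. Transcription stops before these steps end, so the RNA of a sperm is a remnant of the spermatid. Sperm then pass the epididymis and the vas deferens, whose epithelium secretes protease inhibitors, beta-defensins and lipid-binding proteins into the fluid around them. The brain holds neurons, astrocytes, oligodendrocytes that wrap axons in myelin, and microglia.

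Without 5 ribosomal RNA (rRNA) entries, the libraries held 12.9 to 52.4 M counts in sperm (median 47.7 M) and 14.0 to 53.2 M counts in brain (median 46.3 M), where M is 1000000. The rRNA share was 2.04% to 32.7% in sperm and 2.69% to 86.3% in brain, where animals 4 and 9 were highest. Sperm libraries 7 and 14 stood apart, with a median correlation with the other sperm libraries of 0.765 and 0.733, and they were closest to each other (0.963). Library 3 came next, at 0.897. The columns of sperm libraries 7, 16 and 17 held 161 to 215 genes with exactly 1 count, where every other sperm library held 1036 or more. Those of 16 and 17 also held 24944 and 25615 genes at 0, against 17060 at most in the other sperm libraries. A level of 0 below is thus a lack of counts and does not show absence. Levels below are in CPM, the counts of a gene per 1000000 counts of its library without rRNA, scaled by the trimmed mean of M values (TMM) for single genes and unscaled for sums over a list.

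The label was checked against marker genes. The 3 genes named for these samples were high in every sperm library. Serpina1f, a member of the serpin family of protease inhibitors made in the epididymis (chromosome 6, 128585697 to 128591902, GRCr8), was at 3308 to 41329 CPM in sperm (median 19954) and at 0 to 0.0558 CPM in brain (median 0.0205). Aqp2, a water channel known from the kidney and also found in the rat vas deferens (chromosome 7, 132590286 to 132595321), was at 2466 to 26261 CPM in sperm (median 14832) and at 0 to 0.0731 CPM in brain (median 0.0239). Odf1, a protein of the outer dense fibres of the sperm tail (chromosome 7, 71262270 to 71274621), was at 171 to 5539 CPM in sperm (median 777) and at 0 to 0.292 CPM in brain (median 0.0390). In no case did the lowest sperm library reach down to the highest brain library. Sperm genes were not the leading signal in most libraries: in 13 of 15 libraries the summed CPM of 27 epithelial genes of the epididymis and vas deferens was above that of 7 chromatin and 17 tail genes of sperm together. In 11 of 15 the sum of 7 red blood cell genes was above it too. On average Aqp2 alone held most of the epithelial sum. The word sperm is used below for the labelled sample.

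**Figure D1:**
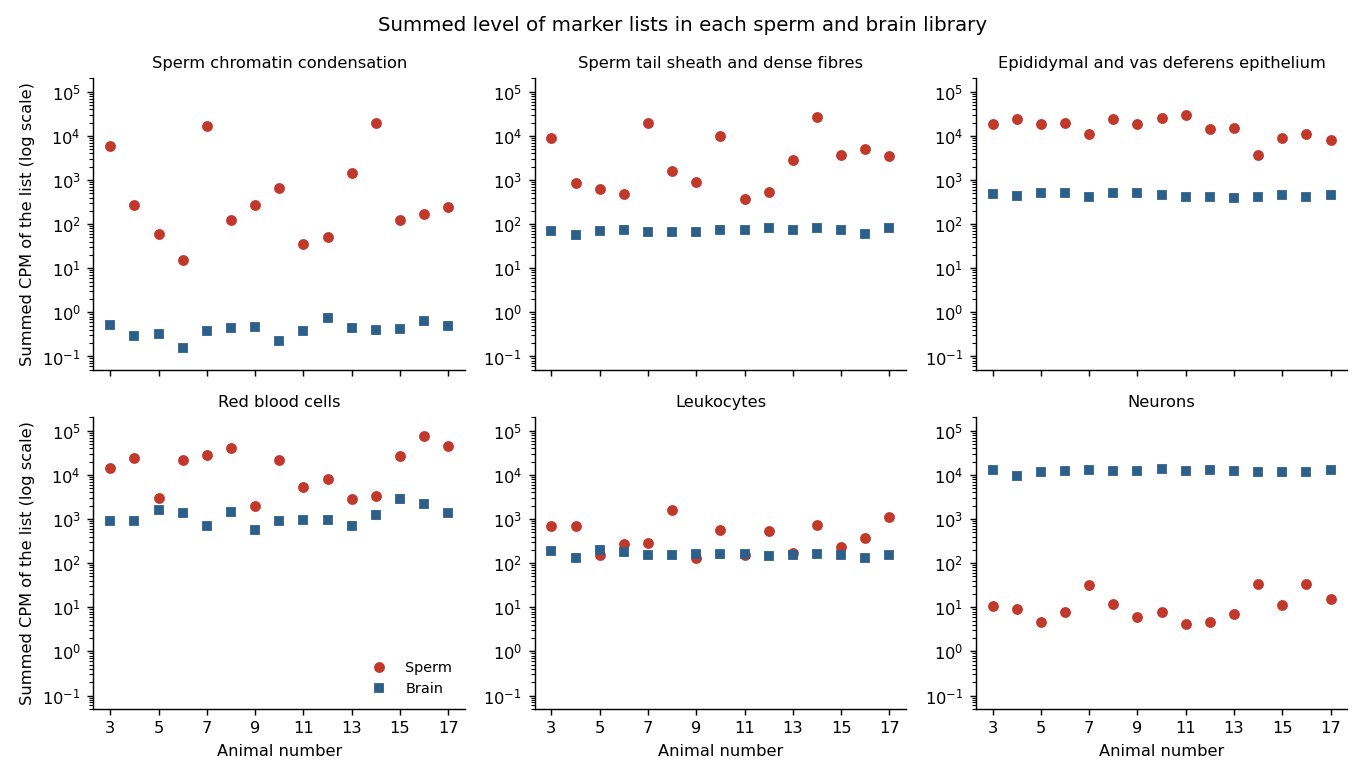
Summed level of 6 marker lists in each library, in CPM on a log scale (y axis), by animal number (x axis), with circles for sperm and squares for brain. Sperm chromatin genes span 15.3 to 19220 CPM among sperm libraries, with animals 3, 7 and 14 highest, while neuron genes stay at or below 34.3 CPM in sperm and at or above 9631 CPM in brain.

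The sperm and brain profiles differed in most of the genes that could be tested. Calls came from edgeR's quasi-likelihood test with the animal as a block, and asked for both a change of 1 or more on the log2 scale and p under 0.05 after Benjamini-Hochberg adjustment. Of 20651 genes tested, 12110 were called, which is 58.6%. In sperm, 4366 genes were higher (21.1%) and 7744 were lower (37.5%), and these are the shares against which counts of list members are read below. A gene can pass the filter on low counts through its higher group alone, so the counts of a list cover the members that passed and are descriptions. The median log2 fold change over all genes tested was -0.40. Of the higher genes 2042 did not overlap between the groups, and of the lower genes 4596 did not. A further 4182 genes were at a similar level, in that the 95% interval of the log2 fold change lay within -1 to 1.

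Sperm held fewer genes in most libraries and varied more from animal to animal. Counting a gene as detected at 1 CPM or more in at least 12 of 15 libraries, 12650 genes were detected in sperm and 16040 in brain. Both groups shared 11668 of them, 92.2% of those in sperm and 72.7% of those in brain, which left 982 detected in sperm alone and 4372 in brain alone. Among the shared genes, 5170 were called and 4134 were at a similar level. The SD of log2 values over animals had a median of 0.58 in sperm and 0.19 in brain, and it was larger in sperm for 88.9% of the genes tested.

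The scale used for the libraries moved the balance of the calls. With relative log expression (RLE) factors the median over all genes moved by -0.26, and 30.0% of the calls were higher in sperm against 36.1% with TMM. Without any factors the shift was -0.35 and that share was 28.0%. A fit without the animal block gave 46.0%. Without animals 7, 16 and 17, whose sperm columns held few low counts, 4717 genes were higher and 7444 lower, and without animals 4, 9 and 16 the counts were 4283 and 7438. Changes close to a log2 value of 1 therefore depend on the scale.

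The genes furthest above brain included genes known from the epididymal tract and from late spermatids. Which cells made the RNA was not tested. The rule took the 10 genes with the greatest called change whose higher group averaged 10 CPM or more, with 15 of 15 animals in the same direction, no overlap and no placeholder symbol. They were Serpina1f, Serpina16, Aqp2, Defb39, Defb28, Crisp3, Crisp2, Prm1, Smcp and Slc13a2. Serpina1f changed by 19.64 ± 0.46 on the log2 scale (SE), edgeR adjusted p = 7.6e-16. It had 18 counts over the 15 brain libraries against 12725074 over the 15 sperm libraries. In the annotation it overlaps Serpina1fl2, a close relative, so reads may be shared between them. Serpina16, the serpin gene next to it (chromosome 6, 128565659 to 128573037), was at 164 to 54782 CPM in sperm (median 13751) and at 0 to 0.163 CPM in brain (median 0.0365) (log2 fold change 18.42 ± 0.81 (SE), edgeR adjusted p = 1.5e-12). Its sperm levels spread over more than 2 powers of 10, far more than those of Serpina1f. Aqp2 changed by 18.34 ± 0.64 on the log2 scale (SE), edgeR adjusted p = 1.0e-13.

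Several genes in this group were all but absent from brain. Defb39, a beta-defensin (chromosome 16, 77442770 to 77446574), was at 97.0 to 1699 CPM in sperm (median 487) and had 0 counts in all brain libraries, at least 119951-fold higher in sperm with a limit of 3 counts over the 15 brain libraries. Crisp2, a cysteine-rich secretory protein of the acrosome and tail (chromosome 9, 27604024 to 27628520), was at 4.07 to 2026 CPM in sperm (median 102) with 0 brain counts, at least 84868-fold higher. The second beta-defensin, Defb28 (chromosome 3, 161448316 to 161454051), was at 10.8 to 1493 CPM in sperm (median 503) with 1 brain count, a ratio of 429831 with a 95% counting interval of 77146 to 16977400.0. Slc13a2, a sodium-coupled transporter of citrate and succinate (chromosome 10, 63789874 to 63817441), was at 64.3 to 899.7 CPM in sperm (median 433) with 2 brain counts, a ratio of 168440.0 (95% counting interval 46629 to 1390870.0). All 4 were higher in sperm in 15 of 15 animals. Crisp3, the secretory relative of Crisp2 (chromosome 9, 27928591 to 27969205), was at 485 to 5620.1 CPM in sperm (median 3501) and at 0 to 0.896 CPM in brain (median 0) (log2 fold change 17.05 ± 0.71 (SE), edgeR adjusted p = 8.8e-13). Limits and intervals cover counting error only.

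The genes furthest below brain were neuronal and oligodendrocyte genes. Syt4, a synaptotagmin of secretory vesicles (chromosome 18, 23311454 to 23320863), had 0 counts in all sperm libraries and was at 183 to 263 CPM in brain (median 242), at least 46375-fold lower in sperm. Gabra6, a GABA-A receptor subunit of cerebellar granule cells (chromosome 10, 27311965 to 27327337), also had 0 sperm counts, with 31.7 to 177 CPM in brain (median 142) and a level at least 24575-fold lower. Olfm3, an olfactomedin, and Ermn, a myelin sheath protein, had 0 sperm counts as well, at least 17525-fold and 16051-fold lower. Snap25, a fusion protein of synaptic vesicles (chromosome 3, 144494579 to 144576449), had 29 counts over the 15 sperm libraries against 2289411 in brain (log2 fold change -16.04 ± 0.55 (SE), edgeR adjusted p = 8.0e-14). Olig1, a transcription factor of oligodendrocytes, had 1 sperm count, a brain to sperm ratio of 83247 (95% counting interval 14941 to 3288090.0). The list also held Tagln3 with 4 sperm counts and C8h11orf87 with 2. All 10 genes the rule took were lower in sperm in 15 of 15 animals. Over all sperm libraries these 10 genes had 0 to 29 counts each.

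**Figure D2:**
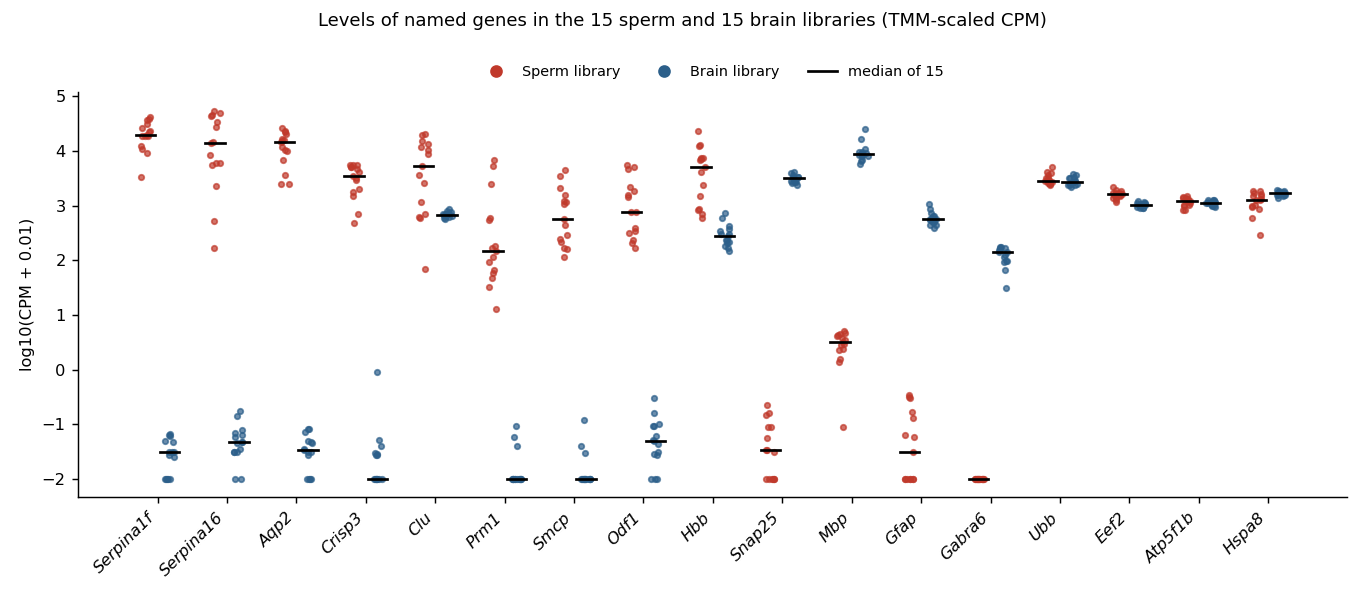
Levels of 17 genes in the 15 sperm (red) and 15 brain (blue) libraries, as log10(CPM + 0.01) with TMM-scaled CPM, and a bar at the median of each group. The sperm and brain clouds are far apart for Serpina1f, Aqp2, Prm1, Snap25 and Gabra6 and overlap for Ubb, Atp5f1b and Hspa8.

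A few genes filled a larger part of the sperm libraries than of most brain libraries. The 10 most abundant entries of each sperm library held 5.65% to 17.1% of its counts (median 13.8%). In brain the same share was 3.43% to 26.7% with a median of 4.06%. By mean share the leading sperm genes were Serpina1f (1.92%), Serpina16 (1.81%), Cbr1l2 (1.23%), Aqp2 (1.18%), Cbr1l1 (1.07%), Hba-a1 (0.988%), Ces5a (0.828%), Clu (0.664%), Hbb (0.569%) and Cbr1 (0.560%). In brain they included Mbp (1.1%), Snap25 (0.353%) and Scd2 (0.347%). Cbr1, Cbr1l1 and Cbr1l2 are neighbouring carbonyl reductase genes on chromosome 11, from 46346405 to 46381104, and near-identical copies may exchange reads, so their split is uncertain. Cbr1l2 was at 2278 to 22232 CPM in sperm (median 14895) and at 16.0 to 25.2 CPM in brain (median 19.2) (log2 fold change 9.34 ± 0.31 (SE), edgeR adjusted p = 6.1e-14). Ces5a, a secreted carboxylesterase (chromosome 19, 11198829 to 11504887), was at 1966 to 13911 CPM in sperm (median 10404) and at 3.12 to 5.14 CPM in brain (median 4.21) (log2 fold change 11.06 ± 0.36 (SE), edgeR adjusted p = 4.8e-14). Neither gene overlapped between the groups.

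The genes that pack the sperm nucleus were higher in sperm, while their summed level varied widely between animals. All 6 tested genes of the 7 chromatin condensation genes were called higher, with a median log2 fold change of 13.81. Prm1, the main protamine (chromosome 10, 5378740 to 5379235), was at 12.6 to 6767 CPM in sperm (median 147) and at 0 to 0.0815 CPM in brain (median 0) (log2 fold change 16.67 ± 0.37 (SE), edgeR adjusted p = 5.8e-16). Prm1 had only 5 counts over all brain libraries, so its SE may be too small. Prm2, the second protamine, was at 0.911 to 886 CPM in sperm (median 17.8) and at 0 to 0.0355 CPM in brain (median 0) (log2 fold change 12.62 ± 0.73 (SE), edgeR adjusted p = 5.5e-11). Tnp1, a transition protein that precedes the protamines, was at 0 to 5578 CPM in sperm (median 9.46) and at 0 to 0.0239 CPM in brain (median 0), with no counts in 1 sperm library (log2 fold change 15.64 ± 0.84 (SE), edgeR adjusted p = 4.9e-11). Tnp2, the other transition protein, was at 2.11 to 5929 CPM in sperm (median 53.0) and at 0.0779 to 0.457 CPM in brain (median 0.167) (log2 fold change 8.18 ± 1.05 (SE), edgeR adjusted p = 1.7e-06). Prm3 was at 0.480 to 892 CPM in sperm (median 10.1) with 0 brain counts, at least 28127-fold higher. Hils1, a spermatid linker histone, overlapped brain in its lowest library, at 0.247 to 1384 CPM in sperm (median 6.23) against 0.0390 to 0.375 CPM in brain (median 0.144) (log2 fold change 6.04 ± 1.00 (SE), edgeR adjusted p = 3.1e-05).

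Animals 3, 7 and 14 carried most of this RNA. The summed level of the chromatin list was 6019.6 to 19219.5 CPM in these 3 libraries and 15.3 to 1412 CPM (median 148) in the other 12. Prm1 stood at 2512 to 6767 CPM in the 3 and at 12.6 to 597 CPM in the 12. In a fit without the 3 animals, a choice made after the data were seen, 5 of 5 tested genes stayed higher, and Prm1 changed by 15.22 ± 0.28 on the log2 scale (SE), edgeR adjusted p = 5.4e-15. Tnp1 was no longer tested there, since too few libraries held it. The 3 libraries also held more genes at 1 CPM or more, 17898 to 20015 against 12573 to 15662 in the other 12. Their summed meiosis genes were at 386 to 1896 CPM against 6.31 to 184 CPM. The number of sperm, the RNA per sperm and the mix of germ cell stages cannot be told apart in such bulk samples.

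The start regions of 2 of these genes and of the leading epididymal gene are shown because genes of spermatids are known targets of the cAMP response element modulator CREM, which binds TGACGTCA and related forms such as TGACTTCA. Each run covers 250 bases before to 50 bases after the RefSeq start in GRCr8, on the gene's strand, with any match in capitals. The first is chr10:5378490-5378789 (plus strand), the next chr9:82044229-82044528 (minus strand) and the last chr6:128591853-128592152 (minus strand).
Prm1: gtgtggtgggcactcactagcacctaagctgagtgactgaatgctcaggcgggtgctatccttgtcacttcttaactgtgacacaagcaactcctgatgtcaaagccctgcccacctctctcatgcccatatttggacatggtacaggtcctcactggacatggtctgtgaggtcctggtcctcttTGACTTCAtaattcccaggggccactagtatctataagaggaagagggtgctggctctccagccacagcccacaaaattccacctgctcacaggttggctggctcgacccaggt
Tnp1: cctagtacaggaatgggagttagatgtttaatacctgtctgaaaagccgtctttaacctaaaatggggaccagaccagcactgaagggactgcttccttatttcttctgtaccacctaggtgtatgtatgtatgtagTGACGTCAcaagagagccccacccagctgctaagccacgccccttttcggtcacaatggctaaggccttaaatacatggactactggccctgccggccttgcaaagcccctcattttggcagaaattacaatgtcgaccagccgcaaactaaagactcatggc
Serpina1f: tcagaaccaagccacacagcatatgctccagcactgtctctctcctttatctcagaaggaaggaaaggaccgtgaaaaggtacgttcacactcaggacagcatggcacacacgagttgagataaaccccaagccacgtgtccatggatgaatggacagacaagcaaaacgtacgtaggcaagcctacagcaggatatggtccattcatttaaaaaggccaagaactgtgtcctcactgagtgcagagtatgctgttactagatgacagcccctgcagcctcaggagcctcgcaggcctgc
The Prm1 match is TGACTTCA, 64 bases before the start, and the Tnp1 match is TGACGTCA, 113 bases before it. The Serpina1f window holds neither. Searched on both strands, TGACGTCA was in 525 of 27457 promoters (1.91%) and in 2.60%, 1.84% and 2.52% of those of the higher genes, the lower genes and all genes tested. TGACTTCA was in 473 of them (1.72%), and in 1.20%, 1.22% and 1.24% of the same groups. Among the 6 promoters of the chromatin list 1 held each form, and none of the 15 of the tail list held either. These are matches of letters and no measure of binding.

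Some tail genes were called higher and others were not called. Of 15 tested genes of the tail sheath and dense fibres, 7 were higher, none was lower and 8 were not called, with a median log2 fold change of 1.84. Odf1 changed by 14.39 ± 0.71 on the log2 scale (SE), edgeR adjusted p = 6.7e-12. Smcp, a protein of the sperm mitochondrial capsule (chromosome 2, 180856561 to 180861564), was at 114 to 4411 CPM in sperm (median 563) and at 0 to 0.110 CPM in brain (median 0) (log2 fold change 16.38 ± 0.49 (SE), edgeR adjusted p = 2.0e-14). Oaz3, the germ-cell form of ornithine decarboxylase antizyme, was at 92.8 to 5723 CPM in sperm (median 777) and at 0.163 to 0.677 CPM in brain (median 0.428) (log2 fold change 10.79 ± 0.68 (SE), edgeR adjusted p = 1.5e-10). Akap4, the main fibrous sheath anchor and a gene of chromosome X, was at 0.385 to 1085 CPM in sperm (median 17.2) with 0 brain counts, at least 39081-fold higher. Odf2, Akap3 and Ropn1l were higher as well, by log2 values of 2.06 ± 0.62, 3.63 ± 0.92 and 4.93 ± 0.85 (SE). The tektins Tekt1 to Tekt5, proteins of the axonemal doublets, were not called, with log2 values of -1.92 (Tekt5) to 1.6 (Tekt4).

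The pattern of the tail list turned on how animals were weighted. Without the animal block, all 15 tested tail genes were higher, with a median of 5.51, and without animals 3, 7 and 14 the counts were 7 higher and 1 lower. The block weighs each animal's own ratio, and in most animals genes such as Tekt5 were near 0 in sperm (median 0.0823 CPM), while the highest library reached 243 CPM. The summed tail list was 9064 to 26359.9 CPM in animals 3, 7 and 14 and 375 to 10028 CPM (median 1255) in the others. Animal 10 had the highest tail sum of the 12, and its chromatin sum of 647 CPM was above their median of 148 CPM. In that library Smcp was at 4411 CPM, Odf1 at 4715 CPM and Prm1 at 597 CPM, each the highest of the 12.

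Most tested acrosome genes were higher in sperm. Of 8 tested genes, 6 were higher and 2 were not called. Tex101, a germ-cell surface protein, was at 6.01 to 145 CPM in sperm (median 41.8) and at 0 to 0.0815 CPM in brain (median 0) (log2 fold change 12.33 ± 0.50 (SE), edgeR adjusted p = 6.7e-13). Acrbp, which binds proacrosin, was at 14.3 to 386 CPM in sperm (median 68.9) and at 1.498 to 4.65 CPM in brain (median 2.94) (log2 fold change 4.63 ± 0.38 (SE), edgeR adjusted p = 4.8e-09). Neither overlapped between the groups. Dkkl1, Spaca4, Zpbp and Zpbp2 were the other 4 higher genes, while Acr, the proacrosin gene itself, and Izumo1, the sperm protein that binds the egg, were not called (log2 values 0.43 ± 1.02 and -1.41 ± 1.23, SE). The other 7 of the 15 genes, Spam1 and Adam3a among them, did not pass the filter on low counts. It asks for enough counts in nearly as many libraries as a group holds. Adam3a, for example, ranged from 0 to 775 CPM with a median of 4.21. Without that filter 12 of 15 were higher. Without animals 3, 7 and 14, 5 of 7 tested acrosome genes were higher and Izumo1 was called lower. Without the block both Acr and Izumo1 were called higher, at log2 values of 3.25 and 3.75.

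Genes of meiosis and of the axoneme did not move as groups. Of 9 tested meiosis and piRNA genes, 2 were higher (Spo11 and Ddx4), 2 were lower (Sycp3 and Dmc1) and 5 were not called. Spo11, which makes the breaks that start recombination, was at 2.66 to 21.4 CPM in sperm (median 7.27) and at 0 to 0.319 CPM in brain (median 0.0628) (log2 fold change 6.84 ± 0.51 (SE), edgeR adjusted p = 1.4e-09). Ddx4, the germ-cell helicase VASA, was at 0 to 252 CPM in sperm (median 3.56) and at 0 to 0.145 CPM in brain (median 0.0254) (log2 fold change 8.09 ± 0.96 (SE), edgeR adjusted p = 6.4e-07). Sycp3, a protein of the synaptonemal complex, had a median of 0.315 CPM in sperm but reached 119.7 CPM, against 3.43 to 6.74 CPM in brain (median 4.63) (log2 fold change -2.56 ± 1.09 (SE), edgeR adjusted p = 0.0425). Its direction turned with the model: without the block it was called higher (2.01, edgeR adjusted p = 0.046), and it lost its call when animal 4, 5, 6, 8, 10, 11, 12, 15, 16 or 17 was left out (-2.63 to -2.25, edgeR adjusted p = 0.0604 to 0.0818). Dmc1, the meiotic recombinase, was at -0.90 without the block and no longer called. The meiosis sum was 386 to 1896 CPM in animals 3, 7 and 14 and 6.31 to 184 CPM in the others, and without the block 8 of 9 genes were higher and 0 lower. Without animals 3, 7 and 14, 1 of 8 was higher and 3 were lower. The most abundant members were Ddx4, Mael, which protects the germline genome, and Piwil1, a piRNA-binding protein. Mael was at 0 to 825 CPM in sperm (median 5.23) and at 0.126 to 0.894 CPM in brain (median 0.409) and was not called (log2 fold change 3.47 ± 1.62 (SE), edgeR adjusted p = 0.0619), although it was called higher without the block (7.79), in DESeq2 and when animal 5, 6, 8, 11 or 12 was left out (3.89 to 4.01), while Piwil1 was not tested, at 0 to 287 CPM in sperm (median 0.296). Of 19 axoneme genes 1 was higher (Dnah1), 5 were lower and 13 were not called, and without the block 10 were higher and 4 lower. Without animals 3, 7 and 14 the lower ones were 8 of 18, and with RLE factors Dnah1 lost its call. The most abundant members beside Dnah9 were the dynein heavy chains Dnah2, at 0 to 107 CPM in sperm (median 9.13) and at 2.61 to 6.92 CPM in brain (median 4.86), and Dnah17, at 0 to 123 CPM in sperm (median 2.57) and at 1.14 to 2.48 CPM in brain (median 1.77), and neither was called, although both were called higher without the block, and Dnah2 also without animal 8 or animal 17 (1.31 and 1.38). Lower were Foxj1, the regulator of motile cilia, Dnah5, Dnah9, Rsph4a and Ccdc39, which brain expresses in its ciliated ependyma. The log2 value of Foxj1 went from -2.48 to 0.074 without the block, with no call. Dnah9, an outer dynein arm motor, was at 0 to 3.58 CPM in sperm (median 0.427) and at 14.3 to 34.4 CPM in brain (median 23.8) (log2 fold change -5.64 ± 0.48 (SE), edgeR adjusted p = 8.2e-09).

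Enzymes of sugar use differed by isoform between brain and sperm. Of 12 tested genes 4 were higher (Gapdhs, Pgk2, Ldhc and Ldha) and 6 were lower. Gapdhs, the sperm form of glyceraldehyde-3-phosphate dehydrogenase, was at 3.49 to 1619 CPM in sperm (median 35.0) and at 1.87 to 6.51 CPM in brain (median 3.66) (log2 fold change 3.68 ± 0.85 (SE), edgeR adjusted p = 8.3e-04), higher in 13 of 15 animals. Its general form Gapdh was at 221 to 1565 CPM in sperm (median 988) and at 1902 to 2671 CPM in brain (median 2101) (log2 fold change -1.30 ± 0.21 (SE), edgeR adjusted p = 2.7e-05), lower in 15 of 15 animals. Without animals 3, 7 and 14 the change of Gapdh was -0.90 ± 0.14 (SE), edgeR adjusted p = 4.4e-05, short of the fold threshold. Pgk2, the phosphoglycerate kinase of spermatids, was at 6.34 to 627 CPM in sperm (median 51.0) with 0 brain counts, at least 33874-fold higher. Pgk1, its X-linked general form, was at 57.6 to 288 CPM in sperm (median 261) and at 402 to 525 CPM in brain (median 457) (log2 fold change -1.1 ± 0.15 (SE), edgeR adjusted p = 3.8e-06). Its call was lost without animals 3, 7 and 14, at -0.79, and without animal 3 or animal 14 alone, just under the fold threshold.

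The lactate dehydrogenases split by subunit. Ldhc, the testis form, was at 0.165 to 894 CPM in sperm (median 7.32) and at 0.0419 to 0.456 CPM in brain (median 0.149) (log2 fold change 5.61 ± 1.13 (SE), edgeR adjusted p = 2.4e-04). Ldha, the subunit of tissues that make lactate, was at 559.6 to 1205 CPM in sperm (median 1025) and at 224 to 330.2 CPM in brain (median 273) (log2 fold change 1.82 ± 0.10 (SE), edgeR adjusted p = 2.4e-11), with no overlap and a spread of only about 2-fold among sperm libraries. Ldhb, the subunit of tissues that burn lactate, was at 24.3 to 447 CPM in sperm (median 77.2) and at 489 to 683 CPM in brain (median 559.9) (log2 fold change -2.86 ± 0.32 (SE), edgeR adjusted p = 2.7e-07). Pdha1, a subunit of pyruvate dehydrogenase, fell by 2.10 ± 0.19 (SE) on the log2 scale. Slc2a3, a glucose transporter of neurons and of sperm, had a median of 12.3 CPM but reached 1014 CPM in sperm, against 74.8 to 137 CPM in brain (median 107) (log2 fold change -2.90 ± 0.93 (SE), edgeR adjusted p = 0.00956). Without the block its log2 value was 0.49 and it was not called. The sixth lower gene was Aldoa, at 5.96 CPM in brain, which lost its call without the block (-0.69). Tpi1, a triose phosphate isomerase, was not called, at 474 ± 235 CPM (SD, n = 15) in sperm and 671 ± 57.2 CPM (SD, n = 15) in brain.

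**Figure D3:**
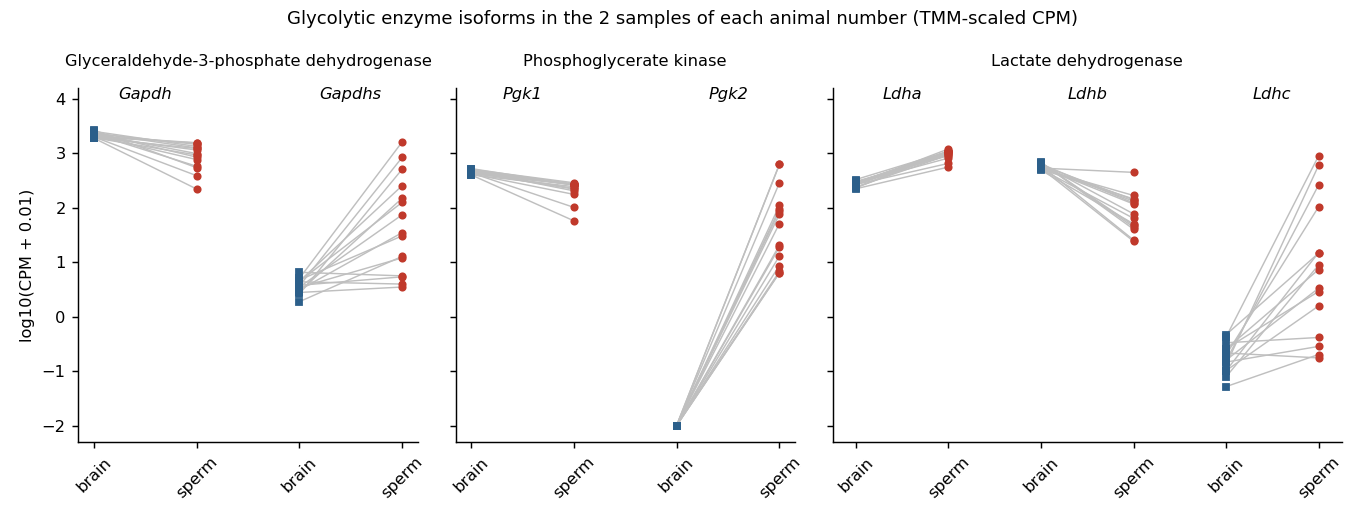
Level of each isoform as log10(CPM + 0.01), TMM-scaled, with a grey line from the brain (square) to the sperm (circle) library of each animal number. Gapdh, Pgk1 and Ldhb fall in all 15 animals, Ldha rises in all 15, and Pgk2 rises from 0 counts in brain, while in sperm Gapdhs runs from 3.49 to 1619 CPM and Ldhc from 0.165 to 894 CPM.

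The list of epithelial genes of the epididymis and vas deferens had a higher sum in every sperm library than in any brain library. Of 26 tested genes 21 were higher, 3 were lower and 2 were not called, with a median log2 fold change of 7.10 beside -0.40 for all genes. Its sum was 3676 to 29062 CPM in the sperm libraries (median 18183) and 394 to 515 CPM in the brain libraries (median 448). On average most of the sperm sum was Aqp2, which held a mean of 1.18% of sperm counts. Krt8 and Krt19 held 0.0714% and 0.0618%. Markers of epithelia in general were among them: Epcam, a cell adhesion protein, was at 168 to 1025 CPM in sperm (median 693) and at 0.820 to 2.32 CPM in brain (median 1.26) (log2 fold change 8.93 ± 0.24 (SE), edgeR adjusted p = 6.0e-15). Krt8, a keratin of simple epithelia, was at 179.9 to 1386 CPM in sperm (median 913) and at 2.54 to 7.25 CPM in brain (median 4.44) (log2 fold change 7.46 ± 0.29 (SE), edgeR adjusted p = 4.2e-13). Cldn3, a tight junction claudin, was at 187 to 966 CPM in sperm (median 710.1) and at 0.489 to 0.987 CPM in brain (median 0.735) (log2 fold change 9.73 ± 0.22 (SE), edgeR adjusted p = 5.8e-16). None of these 3 overlapped between the groups. Krt19, another keratin of simple epithelia, made up the 3 most abundant members with Aqp2 and Krt8, at 119 to 936 CPM in sperm (median 809) and at 0.144 to 5.84 CPM in brain (median 0.39) (log2 fold change 10.36 ± 0.59 (SE), edgeR adjusted p = 4.8e-11).

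Transcription factors and channels of the male duct were higher too. Pax2, needed for the Wolffian duct, was at 60.5 to 496 CPM in sperm (median 284) and at 1.11 to 5.34 CPM in brain (median 3.64) (log2 fold change 6.36 ± 0.25 (SE), edgeR adjusted p = 4.7e-13). Pax8, Emx2 and Hoxb8 were higher by log2 values of 7.83 ± 0.33, 3.56 ± 0.22 and 8.72 ± 0.85 (SE). Foxi1, the regulator of the acid-secreting clear cells, was at 2.76 to 122 CPM in sperm (median 21.5) with 0 brain counts, at least 7025-fold higher. Its proton pump subunits Atp6v1b1 and Atp6v0d2 were higher by 4.61 ± 0.49 and 8.41 ± 0.67 (SE). Aqp9, a channel for water and small solutes, was at 89.2 to 874 CPM in sperm (median 556) and at 6.94 to 10.0 CPM in brain (median 7.78) (log2 fold change 5.94 ± 0.29 (SE), edgeR adjusted p = 7.1e-12). The 3 lower genes were the carbonic anhydrases Car2, Car4 and Car12, which brain expresses as well, and Aqp1 and Cftr were not called. Without the block Cftr was called higher, with its log2 value at 2.08 against -0.34 with it.

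Secreted proteins of the epididymis were split between a few very high genes and many that were hardly read. Of 11 tested genes 8 were higher and 3 were lower. Wfdc10a, a small protein of the whey acidic protein family, was at 195 to 7312 CPM in sperm (median 3486) and at 0.226 to 2.12 CPM in brain (median 0.650) (log2 fold change 11.68 ± 0.62 (SE), edgeR adjusted p = 1.8e-11). Spink8, a protease inhibitor, was at 146 to 953 CPM in sperm (median 665) and at 0.0855 to 0.537 CPM in brain (median 0.214) (log2 fold change 11.47 ± 0.29 (SE), edgeR adjusted p = 2.6e-15). Npc2, the cholesterol carrier of epididymal fluid, was at 673 to 5539 CPM in sperm (median 3569.7) and at 61.0 to 122 CPM in brain (median 92.6) (log2 fold change 5.09 ± 0.24 (SE), edgeR adjusted p = 3.2e-12). Clu, clusterin, a chaperone of both epididymal fluid and astrocytes, was at 69.8 to 20689 CPM in sperm (median 5203) and at 562 to 851 CPM in brain (median 685) (log2 fold change 2.56 ± 0.67 (SE), edgeR adjusted p = 0.00238), higher in 11 of 15 animals. Rnase12, Crisp1, Lcn5 and Eppin were the other 4 higher genes, and Lcn12, Rnase13 and Ptgds were lower. Of these, Lcn5 and Crisp1 were low in sperm, at no more than 16.1 and 21.5 CPM in any library.

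Several other secretory genes of the list were hardly read. Lcn8 had a mean of 0.0706 CPM in sperm, Rnase9 0.162 CPM and Gpx5 0.0827 CPM, and none of them was tested. Cst8, by contrast, was at a median of 1.68 CPM and reached 318 CPM. Ptgds, the lipocalin-type prostaglandin D synthase of the choroid plexus and meninges, was at 0 to 48.3 CPM in sperm (median 4.73) and at 352 to 1364 CPM in brain (median 573) (log2 fold change -7.68 ± 0.74 (SE), edgeR adjusted p = 4.7e-08). The secretory sum was 2564 to 29138 CPM in the sperm libraries (median 12446) and 1156 to 2601 CPM in the brain libraries (median 1521), with animals 7 and 14 lowest. Lcn12 lost its call without the block and without animals 3, 7 and 14, where 8 of 10 tested secretory genes were higher and 1 was lower.

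Marker genes of blood cells were read to different degrees. Red blood cell genes were higher for all 7 members, and their sum was 2009.7 to 75491 CPM in the sperm libraries (median 21934) and 573 to 2864 CPM in the brain libraries (median 941). Hba-a1, an alpha globin, was at 1229 to 33601 CPM in sperm (median 11617) and at 223 to 1022 CPM in brain (median 386) (log2 fold change 4.12 ± 0.40 (SE), edgeR adjusted p = 5.2e-08). Alas2, the haem synthesis enzyme of red cell precursors, was at 19.6 to 546 CPM in sperm (median 121) and at 4.06 to 25.6 CPM in brain (median 7.602) (log2 fold change 3.68 ± 0.39 (SE), edgeR adjusted p = 1.3e-07). Its companions Hba-a2 and Hbb were higher by log2 values of 3.71 ± 0.40 and 3.71 ± 0.42 (SE), and reads may be shared among globin copies. The highest sum was in animal 16 and the lowest in animal 9. Red cell genes were thus read in both samples, and their part in the other results was not tested.

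White blood cell genes were higher for 8 of 11 tested members and lower for none. Their sum was 131 to 1594 CPM in the sperm libraries (median 368) and 129 to 202 CPM in the brain libraries (median 157). Ptprc, the pan-leukocyte marker CD45, was at 9.11 to 80.7 CPM in sperm (median 16.8) and at 2.44 to 5.11 CPM in brain (median 3.51) (log2 fold change 2.47 ± 0.30 (SE), edgeR adjusted p = 9.0e-07). Lyz2, the lysozyme of macrophages and neutrophils, was at 109 to 1282 CPM in sperm (median 226) and at 24.1 to 64.5 CPM in brain (median 35.4) (log2 fold change 2.98 ± 0.32 (SE), edgeR adjusted p = 2.0e-07). Itgb2, an integrin of leukocytes, was higher at 39.3 ± 32.5 CPM (SD, n = 15) in sperm and 7.12 ± 1.79 CPM (SD, n = 15) in brain (log2 fold change 2.08 ± 0.35 (SE), edgeR adjusted p = 3.9e-05), and Coro1a, an actin regulator also made by neurons, was not called (log2 value -0.65 ± 0.25, SE), although it was called lower without factors. The neutrophil genes S100a8 and S100a9 were among the 8 called higher but were low, with medians of 2.73 and 3.80 CPM in sperm.

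Marker genes of accessory glands were low. Of the 14 seminal vesicle and prostate genes in the table, 4 were tested, of which 3 were higher and 1 was lower, and without animals 4, 9 and 16 only 1 was higher. Svs4, the most abundant secretion of the rat seminal vesicle, was at only 0.0745 to 13.5 CPM in sperm (median 4.82) with 0 brain counts. The defining prostate gene Pbsn had a mean of 0.00139 CPM, with 0 in all but 1 library. Acp3, an acid phosphatase, was at 45.01 to 283 CPM in sperm (median 167) and at 0.163 to 0.714 CPM in brain (median 0.330) (log2 fold change 8.90 ± 0.34 (SE), edgeR adjusted p = 3.4e-13). Among 7 tested testis somatic genes 3 were higher (Inha, Cyp11a1 and Hsd3b1), 3 were lower (Sox9, Amh and Star) and Dhh was not called, although without animal 7 or animal 14 it was lower (-1.76 in each). Without the block 1 of these genes was lower, as Star (-0.33) and Amh (-0.76) lost their calls. Only 4 were tested without animals 3, 7 and 14, of which 1 was higher and 3 were lower. Inha, the inhibin alpha subunit of Sertoli cells, was at 14.2 to 66.5 CPM in sperm (median 35.4) and at 5.89 to 13.4 CPM in brain (median 9.06) (log2 fold change 1.82 ± 0.17 (SE), edgeR adjusted p = 2.6e-08). Insl3, the marker of Leydig cells, had a median of 0.135 CPM. Of 13 smooth muscle and stroma genes none was higher and 8 were lower, Acta2 and Myh11 among them. Of its most abundant members Col1a2 was lower (log2 fold change -2.21 ± 0.60 (SE), edgeR adjusted p = 0.00298), while Col3a1 and Vwf were not called (log2 values 0.15 ± 0.40 and 0.03 ± 0.21, SE). Without the block 1 gene of the list was higher and 4 were lower, and Col1a2 and Acta2 were not called. Without animals 3, 7 and 14 the counts were 1 higher and 9 lower.

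**Figure D4:**
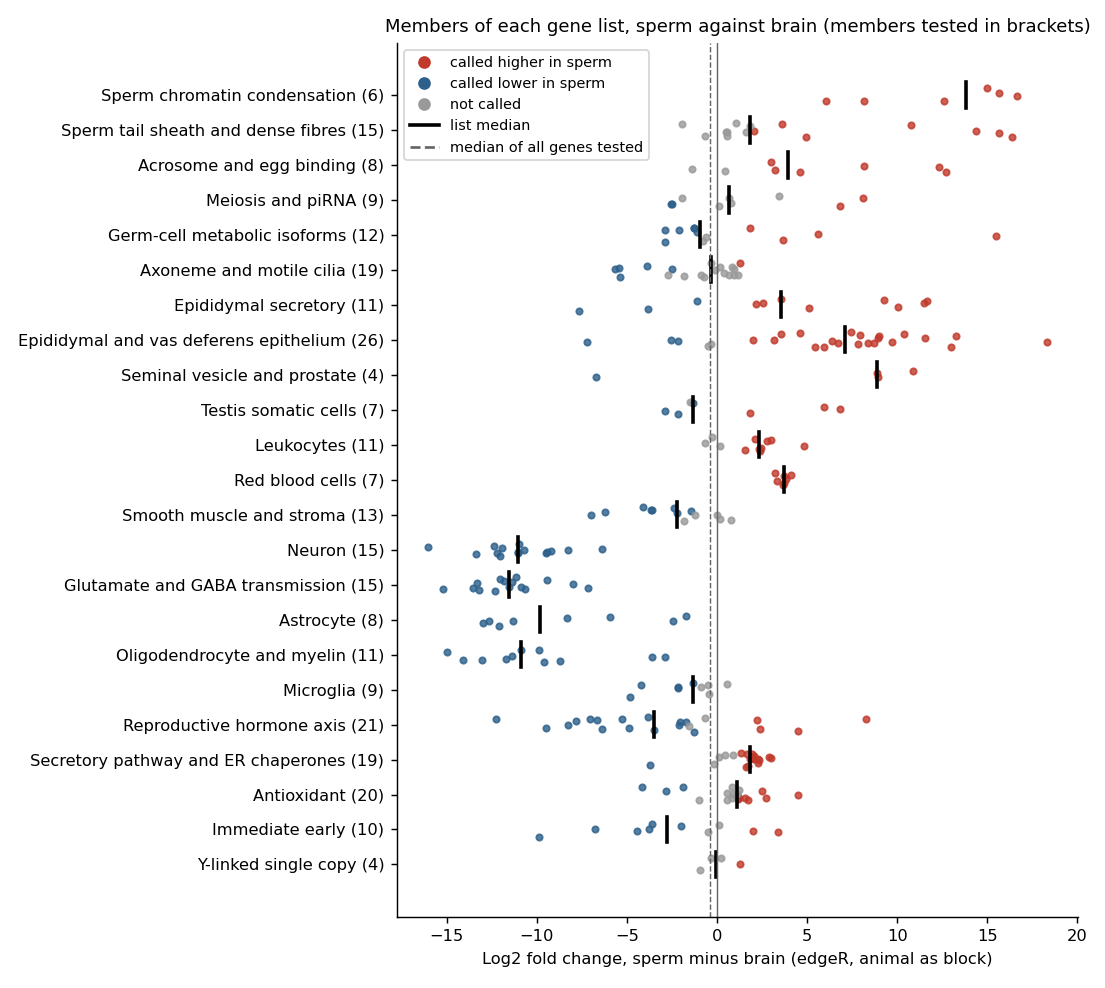
Log2 fold change of each tested member, sperm minus brain (x axis), for 23 gene lists (y axis, members tested in brackets), with a black bar at the list median and a dashed line at the median of all genes tested, -0.40. The chromatin and red cell lists lie to the right. So do the medians of both epididymal lists, although each holds 3 members called lower. The 4 neuron, synapse, astrocyte and oligodendrocyte lists lie wholly to the left, and the axoneme and meiosis lists straddle 0.

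Brain cell genes were lower without exception in 4 lists. All 15 neuron genes, 15 glutamate and GABA genes, 8 astrocyte genes and 11 oligodendrocyte genes were called lower, beside 37.5% of all genes. Their median log2 fold changes were -11.02, -11.53, -9.81 and -10.86. The neuron sum was 4.13 to 34.3 CPM in the sperm libraries (median 9.24) and 9631 to 13309 CPM in the brain libraries (median 12441). Syp, the vesicle protein synaptophysin, was at 0 to 1.67 CPM in sperm (median 0.317) and at 1088 to 1386 CPM in brain (median 1217) (log2 fold change -11.95 ± 0.48 (SE), edgeR adjusted p = 5.4e-13). Camk2a, the kinase of excitatory synapses, was at 0 to 4.02 CPM in sperm (median 0.269) and at 1515 to 2552 CPM in brain (median 1912) (log2 fold change -12.23 ± 0.76 (SE), edgeR adjusted p = 1.3e-10). Among the synaptic genes Slc17a7, the vesicular glutamate transporter, had 186 sperm counts against 633161 brain counts, and Gria2, an AMPA receptor subunit, had 30 against 274960.

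Glial genes behaved alike, apart from a few with wider use. Gfap, the filament protein of astrocytes, was at 0 to 0.340 CPM in sperm (median 0.0209) and at 383 to 1090.0 CPM in brain (median 557) (log2 fold change -13.01 ± 0.66 (SE), edgeR adjusted p = 9.3e-12). Slc1a2, the glutamate transporter of astrocytes, had 1351 sperm counts against 1381329 brain counts. Mbp, the main myelin protein (chromosome 18, 78130652 to 78241174), was at 0.0780 to 5.07 CPM in sperm (median 3.18) and at 5838 to 24889 CPM in brain (median 8624) (log2 fold change -11.70 ± 0.48 (SE), edgeR adjusted p = 6.6e-13). Mobp, another protein of central myelin, had 331 sperm counts against 1918106. Smaller changes were seen in genes that other tissues use, Aldoc at 205 ± 82.3 CPM (SD, n = 15) in sperm and 1009 ± 116 CPM (SD, n = 15) in brain, Cnp at 49.7 ± 22.6 CPM (SD, n = 15) in sperm and 547 ± 147 CPM (SD, n = 15) in brain, and Mal, a lipid raft protein of epithelia and myelin, at 59.0 ± 57.99 CPM (SD, n = 15) in sperm and 285 ± 91.6 CPM (SD, n = 15) in brain. Microglia genes split, with 5 of 9 lower and 4 not called. P2ry12, the most specific of them, fell by 4.82 ± 0.46 (SE) on the log2 scale, while C1qa, C1qb and C1qc, complement genes of all macrophages, were not called. C1qa was called lower with RLE factors, without factors, without the low-count filter and in DESeq2. Aif1, the macrophage protein Iba1, was at 150.1, 567 and 649 CPM in sperm of animals 3, 7 and 14, with a median of 19.9 over all 15, against 11.9 to 32.8 CPM in brain (median 15.7), and was not called with the block but was called higher without it. Csf1r, the receptor for a macrophage growth factor, was lower (log2 fold change -1.32 ± 0.34 (SE), edgeR adjusted p = 0.00184) but not without the block.

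Genes at a like level in both samples bear on the question in the title. By the naming rule, the 10 with the highest smaller mean among the 4182 similar genes included Ubb, Eef2, Atp5f1b, Hspa8, Ckb, Gnas, Atp1b1, Psap and Atp6v0c. They serve protein turnover, translation, energy, signalling and ion gradients. Ubb, a polyubiquitin, was at 2404 to 5117 CPM in sperm (median 2813) and at 2223 to 3813 CPM in brain (median 2737), with a log2 fold change of 0.14 (95% interval -0.17 to 0.45). Atp5f1b, the catalytic subunit of ATP synthase, was at 818 to 1515 CPM in sperm (median 1212) and at 950.5 to 1287 CPM in brain (median 1129), with 0.07 (-0.13 to 0.28). Atp6v0c, the proton channel of the vacuolar pump, was at 923 ± 284 CPM (SD, n = 15) in sperm and 955 ± 105 CPM (SD, n = 15) in brain, with -0.12 (-0.42 to 0.18). Psap, the precursor of the saposins, had an interval of -0.52 to 0.01. The groups overlapped in each of these 4.

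Similar did not mean equal. Eef2, the elongation factor, was higher in sperm in 15 of 15 animals by 0.63 ± 0.10 (SE), edgeR adjusted p = 2.5e-05. Hspa8, a constitutive chaperone, was lower in 14 of 15 with a log2 value of -0.56 ± 0.17 (SE), edgeR adjusted p = 0.00721. Ckb, brain-type creatine kinase, and Gnas, the stimulatory G protein, varied from 266 to 1940.2 CPM and from 185 to 1959 CPM among sperm libraries, against 1148 to 1818 and 1225 to 1791 CPM among brains. Atp1b1, a sodium pump subunit, had a log2 value of -0.55 ± 0.18 (SE). Values of this size and their directions depend on the scale. The median over all genes moved by -0.26 with RLE factors and by -0.35 without factors, where Eef2 and Atp5f1b moved beyond their spread. A similar level in bulk RNA does not show that the same kinds of cell make it.

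The hormone axis that joins brain and gonad was mostly on the brain side. Of 21 tested genes 15 were lower in sperm, 4 were higher and 2 were not called, with a median log2 fold change of -3.49. Among the higher genes were Srd5a2, Prlr and Kiss1. Srd5a2, the enzyme that makes dihydrotestosterone, was at 1.66 to 434 CPM in sperm (median 131) and at 0.0815 to 0.530 CPM in brain (median 0.372) (log2 fold change 8.27 ± 0.68 (SE), edgeR adjusted p = 5.3e-09). Prlr, the prolactin receptor, was at 2.74 to 22.2 CPM in sperm (median 11.9) and at 0.103 to 1.42 CPM in brain (median 0.609) (log2 fold change 4.47 ± 0.43 (SE), edgeR adjusted p = 4.0e-08). Kiss1, the kisspeptin peptide, was at a low 1.16 ± 0.911 CPM (SD, n = 15) in sperm and 0.178 ± 0.0687 CPM (SD, n = 15) in brain (log2 fold change 2.21 ± 0.52 (SE), edgeR adjusted p = 0.00103), and its receptor Kiss1r was at 0.101 ± 0.108 CPM (SD, n = 15) in sperm and 2.83 ± 0.673 CPM (SD, n = 15) in brain (log2 fold change -5.25 ± 0.68 (SE), edgeR adjusted p = 2.0e-06).

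Neuropeptides and receptors made up the lower side. Oxt, oxytocin, had 3 counts over all sperm libraries and varied from 0.407 to 183 CPM among brains, a brain to sperm ratio of 7880.0 (95% counting interval 2696 to 38211). Tac3 and Pdyn, which hypothalamic kisspeptin neurons also make, fell by 7.02 ± 0.72 and 9.51 ± 0.82 (SE) on the log2 scale. Srd5a1, the other reductase gene, went the other way from Srd5a2, at 6.38 ± 3.24 CPM (SD, n = 15) in sperm and 25.1 ± 5.04 CPM (SD, n = 15) in brain (log2 fold change -2.12 ± 0.42 (SE), edgeR adjusted p = 2.3e-04). Esr1 and Esr2, the oestrogen receptors, were lower by smaller margins, with log2 values of -1.28 ± 0.52 and -1.71 ± 0.57 (SE). Esr1 lost its call without the block, at -0.23, and when animal 5, 6, 8, 9, 11 or 12 was left out (-1.26 to -1.13, edgeR adjusted p = 0.0522 to 0.0641). Gnrh1 and Gnrhr were too low to test in whole brain, at means of 0.128 and 0.0872 CPM.

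Machinery for secretion was higher in sperm. Of 19 tested genes of the endoplasmic reticulum (ER) and secretory pathway 14 were higher, 1 was lower and 4 were not called, beside 21.1% higher of all genes. The sum was 3884 to 11844 CPM in the sperm libraries (median 8747) and 2277 to 3497 CPM in the brain libraries (median 3194). P4hb, a protein disulphide isomerase, was at 242 to 1117 CPM in sperm (median 923) and at 89.6 to 135 CPM in brain (median 106) (log2 fold change 2.89 ± 0.19 (SE), edgeR adjusted p = 2.1e-10). Sec61a1, the channel for nascent proteins, was at 223 to 848 CPM in sperm (median 674) and at 53.9 to 71.7 CPM in brain (median 62.8) (log2 fold change 3.01 ± 0.19 (SE), edgeR adjusted p = 1.2e-10). Hspa5, the chaperone BiP, was at 437 to 1702 CPM in sperm (median 973) and at 221 to 300.0 CPM in brain (median 251) (log2 fold change 2.00 ± 0.16 (SE), edgeR adjusted p = 2.7e-09). Calr and Hsp90b1, lumenal chaperones, were higher by log2 values of 1.63 ± 0.18 and 1.34 ± 0.14 (SE), and Hsp90b1 lost its call without factors. Creb3l1, a transcription factor of secretory cells, was the gene that was lower. Animals 3, 7 and 14, richest in chromatin genes, had the lowest sums of this list, 3884 to 5946 CPM against 6595 to 11844 CPM in the others.

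Among 20 tested antioxidant genes 9 were higher, 3 were lower and 8 were not called. Gstm1, a glutathione transferase, was at 719.7 to 6053 CPM in sperm (median 2644) and at 88.0 to 211 CPM in brain (median 109.8) (log2 fold change 4.49 ± 0.28 (SE), edgeR adjusted p = 1.4e-10). Gpx1, a glutathione peroxidase, was at 319 ± 95.01 CPM (SD, n = 15) in sperm and 47.7 ± 8.90 CPM (SD, n = 15) in brain (log2 fold change 2.7 ± 0.13 (SE), edgeR adjusted p = 4.0e-12). Gpx4, the peroxidase of the sperm midpiece capsule, reached 5336 CPM but had a median of 415 CPM in sperm against 287 in brain, and it was not called (log2 fold change 0.82 ± 0.32 (SE), edgeR adjusted p = 0.0279), although without the block it was called higher. Cat, catalase, Gstp1, a glutathione transferase, and Sod3, the extracellular dismutase, were the lower genes, with log2 values of -1.89 ± 0.23, -2.83 ± 0.41 and -4.18 ± 0.63 (SE). Sod1 was higher by 1.22 ± 0.11 (SE), edgeR adjusted p = 1.3e-08, and lost its call with RLE factors, with which 5 of 20 genes were higher.

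Of 10 immediate early genes, which cells switch on within minutes of a stimulus, 6 were lower and 2 were higher. Arc, Fos, Fosb, Egr1, Nr4a1 and Npas4 were lower, Egr1 at 11.5 ± 4.84 CPM (SD, n = 15) in sperm and 150.0 ± 48.6 CPM (SD, n = 15) in brain (log2 fold change -3.76 ± 0.21 (SE), edgeR adjusted p = 2.9e-11). Egr2 was higher, at 16.2 to 90.0 CPM in sperm (median 66.2) and at 2.30 to 15.7 CPM in brain (median 5.01) (log2 fold change 3.40 ± 0.24 (SE), edgeR adjusted p = 7.5e-10), and Atf3 was too (log2 fold change 2.00 ± 0.48 (SE), edgeR adjusted p = 0.00123). Jun was not called, at 53.1 ± 21.9 CPM (SD, n = 15) in sperm and 69.0 ± 6.77 CPM (SD, n = 15) in brain. Among 136 tested ribosomal protein entries 18 were higher, 19 were lower and 99 were not called. All 19 lower entries carry the names of gene copies, as did 5 of the 18 higher ones, so reads shared with near-identical copies leave them uncertain. The most abundant higher entries were Rps7, Rpl41 and Rplp0, of which Rpl41 was at 1471 ± 514 CPM (SD, n = 15) in sperm and 309 ± 97.3 CPM (SD, n = 15) in brain (log2 fold change 2.24 ± 0.13 (SE), edgeR adjusted p = 5.6e-11). Rps7 was at 1500.3 ± 415 CPM (SD, n = 15) in sperm and 391 ± 117 CPM (SD, n = 15) in brain (log2 fold change 1.93 ± 0.12 (SE), edgeR adjusted p = 8.8e-11) and Rplp0 at 897 ± 127 CPM (SD, n = 15) in sperm and 351 ± 70.5 CPM (SD, n = 15) in brain (log2 fold change 1.36 ± 0.09 (SE), edgeR adjusted p = 2.2e-10). With RLE factors 9 ribosomal entries were higher, and without animal 3 the lower ones were 10. Mitochondrially encoded genes were not analysed here.

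Chromosomes differed modestly in the balance of calls. Chromosome X had 46.0% of 678 tested genes lower and 19.0% higher in sperm, with a median log2 fold change of -0.81. Chromosome 20 was the most even, with 28.6% higher and 28.8% lower of 590 genes. Y-linked genes were read in both samples: of 4 tested, Eif2s3y, a translation factor, was higher, at 155 ± 64.4 CPM (SD, n = 15) in sperm and 59.2 ± 3.23 CPM (SD, n = 15) in brain (log2 fold change 1.26 ± 0.18 (SE), edgeR adjusted p = 4.6e-06), and Ddx3y, Kdm5d and Uty were not called. With RLE factors, without factors and in DESeq2 Eif2s3y was no longer called and Kdm5d, a histone demethylase, was called lower (log2 value -0.95 ± 0.30, SE, with TMM), as it was when animal 6, 8, 10, 12 or 13 was left out (-1.04 to -1.02). These shares are descriptions over genes, which are not replicates.

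Neighbours of the leading genes differed from one region to the next. Tested genes within 500 kb were counted and are read beside the 21.1% higher and 37.5% lower of all genes. Around Serpina1f 8 of 17 were higher and 4 lower, and the higher ones included Serpina16, Serpina1, Serpina11, Serpina1fl1 and Serpina1fl2. Around Crisp3 6 of 9 were higher and 1 lower, with Crisp1, Crisp2, Pgk2 and Defb49 among the higher. Near Defb39 5 of 10 were higher, all of them beta-defensins, and 3 were lower (Angpt2, Agpat5 and Mcph1). Around Wfdc10a 16 of 44 were higher and 12 lower, with Wfdc2, Wfdc6b, Wfdc8, Wfdc9, Eppin, Slpi, Svs4 and Svs6 among the higher. Around Cbr1 7 of 9 were higher and none was lower. Near Defb28 8 of 27 were higher and 7 lower. Near Aqp2 8 of 30 were higher, Aqp5 among them, and 13 were lower. The windows were chosen after the genes were known, and related neighbours may share reads.

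Lastly, the sperm change was set against the change between ovary and female brain in 14 female rats of the same strain. The test of the difference, over 58 rat libraries, called 11817 of 22989 genes (51.4%), of which 5792 had a positive and 6025 a negative difference, taken as the sperm change minus the ovary change. Sex and organ cannot be told apart in it. Levels set against ovary were scaled over all 58 libraries. Aqp2 was at 14789 ± 9104 CPM (SD, n = 15) in sperm and at 0.0364 ± 0.0521 CPM (SD, n = 14) in ovary, a difference of the 2 changes of 18.52 ± 1.34 (log2, SE), edgeR adjusted p = 2.1e-18. Serpina1f was at 0.0386 CPM in ovary, with a difference of 19.26 ± 1.21, edgeR adjusted p = 4.7e-21. Odf1 was at 0.0568 CPM in ovary, with 14.39 ± 1.34, edgeR adjusted p = 3.1e-14. Prm1, Smcp and 1700012A03Rikl had 0 counts in all ovaries.

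The 5 genes the rule named for a negative difference were Hsd3b3, Ptgfr, Akr1c3, Mmp13 and Fabp6. Hsd3b3, a steroid dehydrogenase, was at 2559 ± 579 CPM (SD, n = 14) in ovary and 0.790 ± 0.612 CPM (SD, n = 15) in sperm (difference -12.77 ± 1.70, edgeR adjusted p = 2.4e-09). Ptgfr, the prostaglandin F receptor of the corpus luteum, was at 473 ± 344 CPM (SD, n = 14) in ovary and 0.0762 ± 0.110 CPM (SD, n = 15) in sperm (difference -12.62 ± 0.58, edgeR adjusted p = 5.4e-27). Akr1c3, Mmp13 and Fabp6 were at 1905, 51.2 and 74.8 CPM in ovary, and they had 3, 1 and 0 counts over all sperm libraries.

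**Figure D5:**
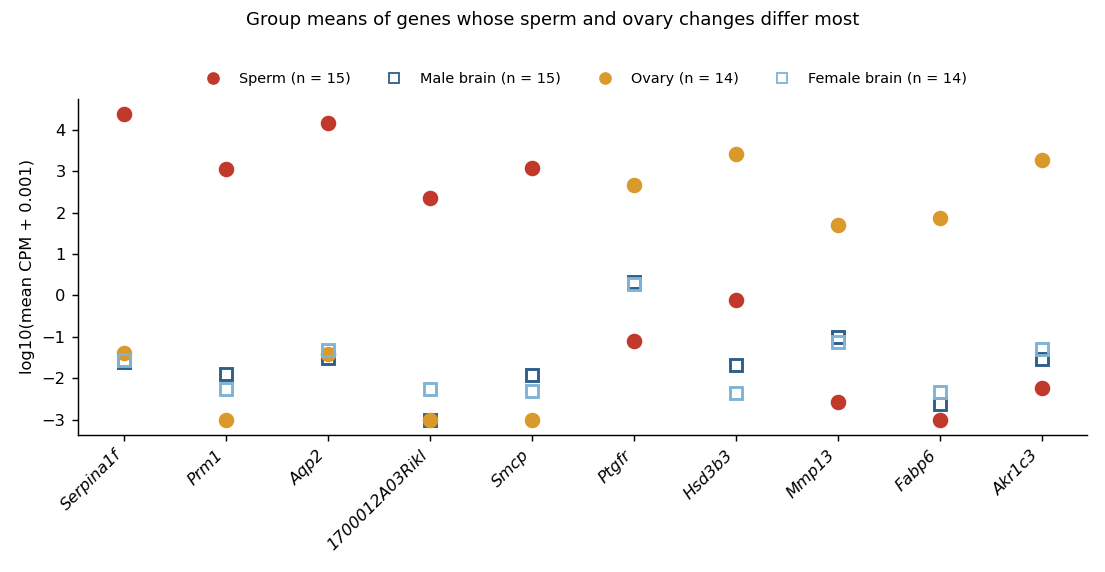
Group means as log10(CPM + 0.001) for the 10 genes the rule named, 5 per direction, in sperm, male brain, ovary and female brain, scaled over 58 libraries and drawn without error bars. In the 5 genes to the left sperm stands above the other 3 groups, and in the 5 to the right ovary does.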

How the data were processed

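RNA was extracted from 15 sperm and 15 whole brain samples with a Zymo kit and DNase I, made into stranded mRNA libraries (Watchmaker) and read as 150-base pairs, per the labels' protocols. The deposited values are raw counts per gene in 1 table per tissue. The authors trimmed reads with Trimmomatic 0.39, aligned them with STAR 2.7.5a to GRCr8 and counted them with Rsubread 2.20.0 in R 4.4.2, per the design text. Whether counting used strand, and how it treated reads with several matches, is not given in the sources used here, so overlapping genes and close copies may share reads. Of 38675 genes, 38599 matched the RefSeq table of GRCr8 used for positions and promoters.

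Entries for rRNA (Rn45s, Rn28s, Rn18s, LOC120093067, LOC120099695) were left out of totals and tests, 2.04% to 32.7% of counts in sperm and 2.69% to 86.3% in brain. Counts were tested in edgeR 4.0.16 (R 4.3.3) with filterByExpr, TMM factors, prior count 0.125 and a quasi-likelihood fit of animal number and tissue. The ovary comparison used 58 rat libraries and tissue alone. The animal number was kept as a block because the comparison pairs by it: after removal of group means, same-numbered libraries correlated at -0.08 to 0.29 over 11668 genes, above 0.1 in 4 of 15 pairs. Fitted fold changes of genes with 0 counts in a group depend on the prior count, so bounds are given. Each SE of a log2 fold change, and each interval built on it, was derived from the fold change and its test statistic. For genes with few counts in a group, the fold change also depends on the prior count. Such an SE may then be too small, since it need not cover the counting error. P-values measure the spread between animals as sampled, since the labels name no other level of replication.

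Genes named were the 10 furthest in each direction, the 10 and 5 with the largest shares of sperm and brain counts, the 10 of similar level with the highest smaller mean, the 3 most abundant members of each list and those against their list's majority, the 3 markers, and 5 per direction for ovary. Some genes these rules took are not reported here. Other list members named were picked to describe their list after their values were seen. The members and lists were chosen with earlier results of these data known. Alternatives were other scalings and filters, DESeq2 1.42.0, limma 3.58.1 (voom with quality weights), no block, rRNA kept and omitted animals. Those without animals 3, 7 and 14, without 7, 16 and 17, and without 4, 9 and 16 were chosen after seeing the data. The main fit of sperm against brain was tested on simulated data, and the other fits were not. The simulation changed few genes, equally in both directions, with the same spread in both groups, unlike these data. It therefore cannot speak to the choice of scale or to the larger spread in sperm.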

Additional observations from a re-analysis of the deposited data

Results flagged for a closer look

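In 11817 of 22989 genes the change from brain to sperm differed from the change from brain to ovary, by edgeR's test of the difference. Values here are log2 differences, the sperm change minus the ovary change, and sex and organ cannot be told apart in them. The 5 genes named for a positive difference were Serpina1f (19.26 ± 1.21, SE), Prm1 (18.52 ± 6.15), Aqp2 (18.52 ± 1.34), the uncharacterised 1700012A03Rikl (17.76 ± 5.96) and Smcp (17.70 ± 4.48). The 5 named for a negative difference were Akr1c3 (-17.37 ± 1.23), Fabp6 (-13.95 ± 3.67), Mmp13 (-13.83 ± 1.08), Hsd3b3 (-12.77 ± 1.70) and Ptgfr (-12.62 ± 0.58). Where a group has 0 counts the fitted size depends on the prior count.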

How the results depend on the processing

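Without the filter on low counts, 18241 of 35482 genes were called, 7491 of them higher in sperm, and with a mean of at least 10 CPM required, 7247 of 12977, 4024 of them lower, since these filters change how many genes are tested. Without the replicate block 12268 genes were called (5639 higher and 6629 lower), 10982 of them called in the same direction with it and 2 in the opposite one, and the ovary comparison called 10827 with the block. The pairing check gave no clear sign that numbers share an animal: 3 of 15 sperm libraries correlated best with their own number. Leaving out 1 animal at a time gave 11919 to 12290 called genes, 4249 to 4624 higher, 7504 to 7892 lower and 3986 to 4400 of similar level. Splits under other scalings were 3677 higher and 8563 lower with RLE, 3475 and 8927 without factors, and 3821 and 8954 in DESeq2. Detection in both groups fell to 8695 genes at 5 CPM and to 9578 in all 15 libraries. Of the log2 fold changes of the single genes that the rule took or the text names, 5936 values under the alternatives kept direction and call or, where there was no call, stayed within their spread, 52 gained and 108 lost a call, 3 without a call moved further, and 6 reversed. All 6 reversed without the block: Sycp3 was then at 2.01, Slc2a3 at 0.49, Foxj1 at 0.074, Cftr at 2.08, Izumo1 at 3.75 and Tekt5 at 4.2. Of the called counts of lists, 93 values moved by more than 1.5 times and 1307 did not. The 70 values of differences from ovary kept direction and call. Depth limits genes under about 1 CPM in the shallowest libraries.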

Other observations

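The list of 19 prostaglandin and polyunsaturated fatty acid enzymes was drawn up after values were seen, and it had 11 higher, 3 lower and 5 uncalled members, beside 21.1% and 37.5% of all genes tested. Ptges, the prostaglandin E synthase, was at 862 to 9327 CPM in sperm (median 5329) and at 0.410 to 1.28 CPM in brain (median 0.869) (log2 fold change 12.28 ± 0.46 (SE), edgeR adjusted p = 2.8e-13). Ptgs2, the inducible cyclooxygenase that feeds it, was at 322 to 6422 CPM in sperm (median 3157) and at 8.15 to 24.0 CPM in brain (median 14.1) (log2 fold change 7.37 ± 0.44 (SE), edgeR adjusted p = 7.9e-11). Fads1 and Fads2, desaturases that make its precursors, were higher by log2 values of 5.03 ± 0.36 and 4.56 ± 0.28 (SE). Ptgds, Hpgds and Abcc4 were the lower members. Ptges was also read in ovary, at 38.0 ± 15.4 CPM (SD, n = 14) on the scale of all 58 libraries.

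Genes of salt and water transport were split. In a second list drawn up after values were seen, 6 of 12 tested members were higher and 3 were lower. Scnn1a, a subunit of the epithelial sodium channel, was at 4.47 to 65.0 CPM in sperm (median 34.8) and at 0.413 to 0.984 CPM in brain (median 0.786) (log2 fold change 5.19 ± 0.35 (SE), edgeR adjusted p = 3.8e-10). Slc26a3, a chloride and bicarbonate exchanger, was at 0.422 to 61.9 CPM in sperm (median 4.50) and at 0.332 to 0.760 CPM in brain (median 0.482) (log2 fold change 3.22 ± 0.45 (SE), edgeR adjusted p = 4.1e-06). Cd52, a small glycoprotein of epididymis and lymphocytes, was at 5894 ± 3557 CPM (SD, n = 15) in sperm and 0.604 ± 0.287 CPM (SD, n = 14) in ovary on that same scale.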
